A study of Mus musculus with 18 samples.

Results

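The 10 genes described here belong to the transcriptional response headed by Atf4 and to the serine and mitochondrial folate pathway that this response feeds: Atf4, Ddit3, Trib3, Chac1, Sesn2, Asns, Phgdh, Psat1, Shmt2 and Mthfd2. They were chosen by gene symbol, and every probe that the array annotation gives one of these symbols was taken, which made 19 probes of the 45281 on the array, for 10 of its 30869 gene symbols. Chac1, Phgdh and Psat1 had 1 probe each, and the other genes had 2 or 3. A gene is represented below by its probe with the highest mean signal, and all 10 of these probes were detected on all 18 arrays. The representative Mthfd2 probe carries the symbol with no transcript accession in the annotation, and the other Mthfd2 probe, which has one, is given beside it where a result turns on the gene.

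Atf4 is a bZIP transcription factor whose mRNA is translated preferentially when the initiation factor eIF2 is phosphorylated, as happens in cells short of amino acids or with misfolded protein in the endoplasmic reticulum, so its own mRNA level reports its activity only in part. Its known targets include Ddit3, which encodes the transcription factor CHOP, Trib3, a pseudokinase that feeds back on the pathway, Chac1, which breaks down glutathione, Sesn2, a sestrin that restrains mTORC1 signalling when leucine is low, and Asns, which makes asparagine. Phgdh and Psat1 catalyse the first steps of serine synthesis from glycolytic intermediates, Shmt2 moves a carbon unit from serine to folate in mitochondria, and Mthfd2 oxidizes the resulting folate. Purine synthesis draws on the formate and glycine made this way, and HPRT, the enzyme silenced in this study, salvages purine bases in parallel to that synthesis.

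The cells were ESD3 mouse embryonic stem cells, a line from strain 129s2/SvPas grown on mouse embryo fibroblast feeders in a medium with serum replacement, LIF, bFGF and non-essential amino acids. Control cells carried an shRNA against luciferase and knockdown cells an shRNA against HPRT, designed on the human gene, delivered by a viral vector and followed by puromycin selection. Both were taken through a dopaminergic differentiation protocol and sampled as undifferentiated cells (ES stage), as spherical neural masses (SNM stage) and as the final differentiated cultures (neuronal stage). Each of the 6 conditions was a single pool of RNA from replicate cultures measured on 3 Illumina arrays, so the errors and p-values below describe how well an array measures a pool and not how far separate cultures differ.

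Hprt1 mRNA was lower in the knockdown at every stage, with log2 differences of -4.09 in ES, -1.76 in SNM and -4.45 in neuronal cultures. The 18 arrays detected between 18827 and 22202 probes. Of the neuron markers on the array, Stmn2, Dcx, Syp and Ina were detected on every array of both cultures labelled neuronal, with mean signals of 12.01, 10.44, 10.04 and 9.83 in the control and of 8.93, 8.47, 8.90 and 6.26 in the knockdown. Tubb3 was detected on every control and on no knockdown array of that stage, and Snap25 and Nefl were undetected on every array of both cultures. The summed signal of 8 skeletal muscle genes, on a log2 scale, was 16.08 to 16.09 in the control neuronal cultures and 8.34 to 8.79 in the knockdown, and that of 8 oligodendrocyte genes was 9.51 to 9.71 and 15.27 to 15.47. Proliferation genes (Mki67, Top2a and 6 others) had sums of 14.20 to 14.27 in control and 14.13 to 14.15 in knockdown cells at the ES stage, of 13.61 to 13.64 and 12.95 to 12.98 at the SNM stage, and of 12.15 to 12.20 and 11.05 to 11.09 at the neuronal stage. Thus the signals of cell type markers moved with stage and with knockdown. In RNA from whole cultures fewer cells of a type and less RNA per cell cannot be told apart. The part of these differences in the results below was not tested.

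The promoters of the 10 genes were read from RefSeq (GRCm38.p6), as windows from 250 bases before to 50 bases after each annotated start, which gave 11 windows because Psat1 has 2. They were searched on both strands for TGATGNAA, a core of the composite C/EBP-ATF site through which Atf4 is known to act. It was found in 3 of the 11 windows, in Asns, Chac1 and Trib3, and in 3.97% of all 32851 promoters of this length. The 3 windows are printed with the match in capitals, together with that of Ddit3, the gene that differed most between knockdown and control and whose window holds no match. Each is written 5′ to 3′ along the gene.
Asns promoter, chr6:7693160-7693459, minus strand: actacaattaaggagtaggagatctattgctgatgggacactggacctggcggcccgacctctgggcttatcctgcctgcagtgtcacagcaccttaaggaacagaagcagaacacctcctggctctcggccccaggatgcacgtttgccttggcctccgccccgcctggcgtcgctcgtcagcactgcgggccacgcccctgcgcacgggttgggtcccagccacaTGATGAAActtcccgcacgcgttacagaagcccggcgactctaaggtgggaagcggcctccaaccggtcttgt
Chac1 promoter, chr2:119350992-119351291, plus strand: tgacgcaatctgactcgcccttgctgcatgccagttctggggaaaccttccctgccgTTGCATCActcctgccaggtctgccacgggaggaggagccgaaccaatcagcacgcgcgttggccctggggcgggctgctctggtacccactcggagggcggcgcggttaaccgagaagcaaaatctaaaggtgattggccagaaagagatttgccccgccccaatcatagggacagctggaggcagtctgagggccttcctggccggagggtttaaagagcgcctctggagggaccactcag
Trib3 promoter, chr2:152344011-152344310, minus strand: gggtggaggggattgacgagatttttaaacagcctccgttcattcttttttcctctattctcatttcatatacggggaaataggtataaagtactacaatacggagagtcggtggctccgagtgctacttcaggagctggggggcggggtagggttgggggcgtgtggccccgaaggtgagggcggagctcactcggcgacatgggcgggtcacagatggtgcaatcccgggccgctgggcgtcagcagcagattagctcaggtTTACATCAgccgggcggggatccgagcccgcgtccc
Ddit3 promoter, chr10:127290543-127290842, plus strand: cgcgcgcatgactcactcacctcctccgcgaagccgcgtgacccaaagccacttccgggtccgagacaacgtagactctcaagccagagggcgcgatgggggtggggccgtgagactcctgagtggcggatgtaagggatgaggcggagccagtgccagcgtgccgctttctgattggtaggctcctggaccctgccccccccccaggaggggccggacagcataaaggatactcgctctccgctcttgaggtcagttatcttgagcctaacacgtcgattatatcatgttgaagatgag
The match begins at base -23 from the start in Asns, on the strand of the gene, at base -193 in Chac1 and at base 15 in Trib3, both on the opposite strand. Neither TGACGTCA, the cyclic AMP response element, nor CACGTG, the E-box, occurred in any of the 11 windows, against 1.79% and 7.15% of all promoters. A match is a string of letters and not evidence of binding, and its absence holds for this window only.

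At its brighter probe Atf4 mRNA was nearly level across the study, and the 6 condition means spanned 0.43 on the log2 scale. The signal, here and below the background-corrected and normalized log2 value on arrays 1, 2 and 3, was 12.69, 12.61 and 12.56 in control ES cells and 12.80, 12.80 and 12.89 in knockdown ES cells. At the SNM stage it was 12.72, 12.55 and 12.59 in the control and 12.41, 12.41 and 12.39 in the knockdown. In the neuronal cultures it was 12.45, 12.36 and 12.46 in the control and 12.45, 12.40 and 12.54 in the knockdown. The knockdown arrays lay above the control arrays at the ES stage, below them at the SNM stage and among them at the neuronal stage. In order of their means, the control ES and control SNM arrays overlapped, and so did the lower 3 conditions, both neuronal cultures and the knockdown SNM cells. The dimmer Atf4 probe, also detected on all 18 arrays, varied more. Its means ran from 9.61 in knockdown ES cells to 8.73 in control neuronal cultures.

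Ddit3 took the opposite course to most of the set and had the widest knockdown difference. Its signal was 7.60, 7.59 and 7.59 in control ES cells and 8.23, 7.92 and 8.11 in knockdown ES cells. SNM cells read 8.32, 8.10 and 8.09 in the control and 8.91, 8.87 and 8.78 in the knockdown. Neuronal cultures read 8.52, 8.46 and 8.44 in the control and 9.87, 9.72 and 9.66 in the knockdown. The knockdown arrays lay above the control arrays at each stage without overlap, and within each cell line the level was higher at each later stage. The control SNM and knockdown ES arrays were the only neighbours in the order of levels that overlapped.

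Trib3 followed the stage more than the knockdown. Its signal was 9.55, 9.68 and 9.63 in control and 9.83, 9.83 and 9.82 in knockdown ES cells. It was 8.84, 8.93 and 8.80 in control and 8.85, 8.77 and 8.54 in knockdown SNM cells. In neuronal cultures it was 7.78, 7.86 and 7.80 in the control and 7.86, 7.81 and 7.58 in the knockdown. The knockdown arrays lay above the control arrays at the ES stage, and the arrays of the cell lines overlapped at the SNM and neuronal stages. The 3 stages were fully apart in both lines.

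**Figure D1:**
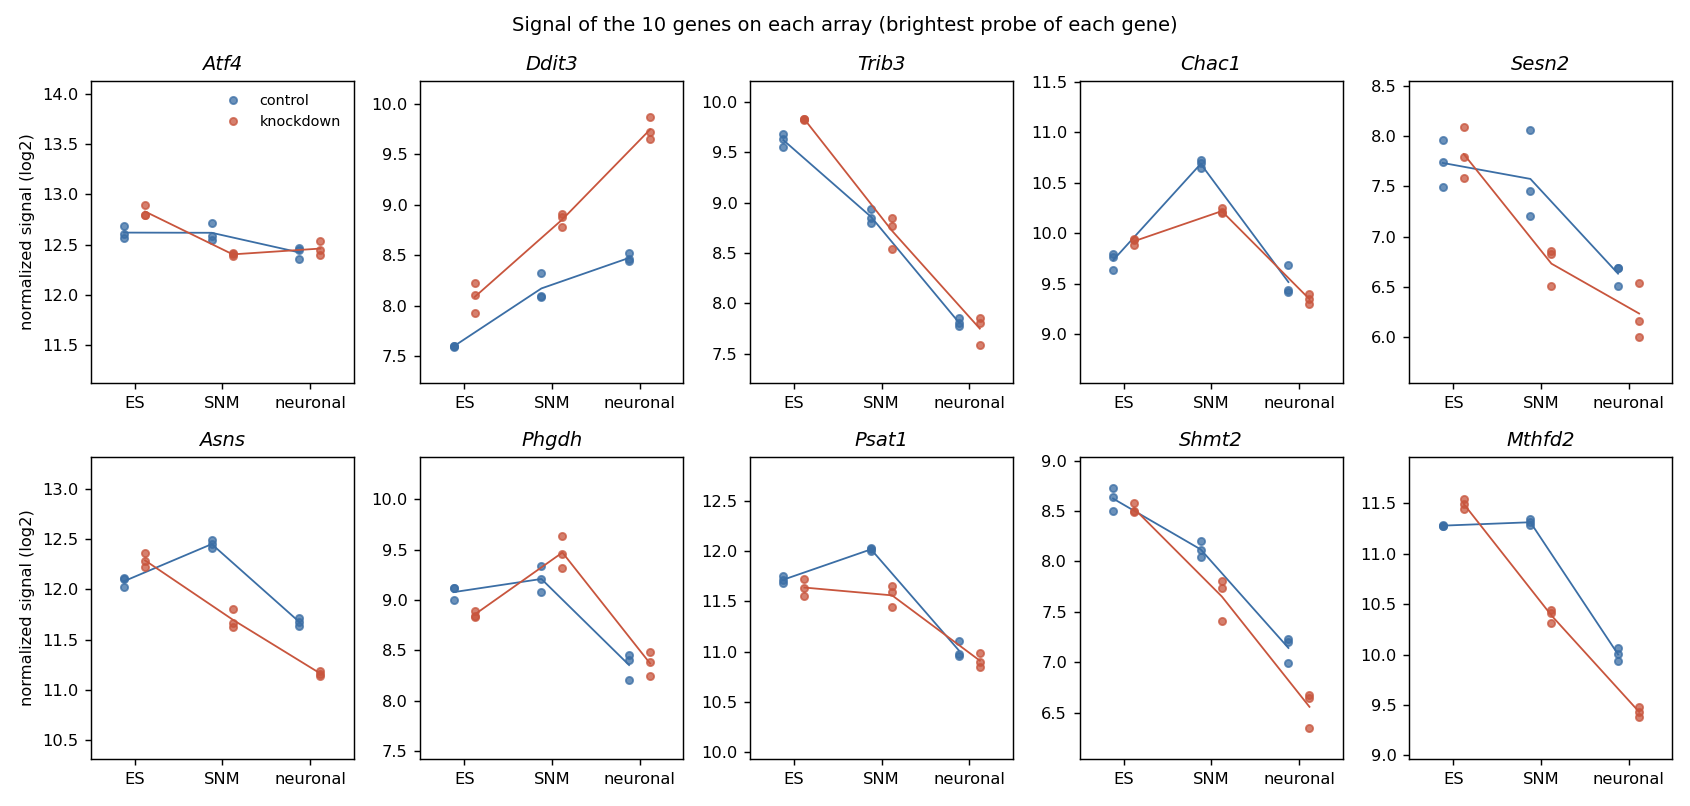
Normalized log2 signal (vertical axis, each panel spanning 3 log2 units) of the 10 genes on each of the 18 arrays by stage (horizontal axis), with control arrays in blue, knockdown arrays in red and lines joining the means of 3 arrays. Each gene is shown by its brightest probe. Ddit3 is highest in the knockdown at every stage, and Atf4 stays between 12.36 and 12.89. Asns, Chac1 and Mthfd2 separate between the lines at every stage, with the knockdown above the control at the ES stage and below it at the later ones.

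Among the effectors, Chac1 was highest at the SNM stage in both lines. Its signal was 9.64, 9.76 and 9.79 in control and 9.95, 9.94 and 9.88 in knockdown ES cells. SNM cells gave 10.70, 10.72 and 10.64 in the control and 10.21, 10.25 and 10.20 in the knockdown. Neuronal cultures gave 9.69, 9.44 and 9.42 in the control and 9.34, 9.40 and 9.30 in the knockdown. The lines did not overlap at any stage, with the knockdown on top at the ES stage and the control on top at the later ones.

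Sesn2 was the least precisely measured of the 10 genes. Its signal was 7.49, 7.74 and 7.96 in control and 7.58, 7.79 and 8.09 in knockdown ES cells. At the SNM stage the control arrays were spread widely, at 7.21, 7.45 and 8.06, and the knockdown arrays read 6.86, 6.83 and 6.51. Neuronal cultures read 6.51, 6.69 and 6.69 in the control and 6.004, 6.17 and 6.54 in the knockdown. The lines were apart only at the SNM stage.

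Asns was highest in control SNM cells. Its signal was 12.10, 12.12 and 12.03 in control and 12.28, 12.36 and 12.23 in knockdown ES cells. It was 12.45, 12.41 and 12.49 in control and 11.67, 11.80 and 11.62 in knockdown SNM cells. It was 11.63, 11.72 and 11.67 in control and 11.19, 11.16 and 11.14 in knockdown neuronal cultures. The order of the lines thus turned between the ES and SNM stages, and the knockdown SNM cells already overlapped with the control neuronal cultures.

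The first serine enzyme, Phgdh, was the member of the metabolic group that least resembled the others. Its signal was 9.12, 9.12 and 8.9996 in control and 8.89, 8.84 and 8.83 in knockdown ES cells, and 9.07, 9.34 and 9.21 against 9.46, 9.32 and 9.64 at the SNM stage. It was 8.40, 8.21 and 8.46 in control and 8.38, 8.24 and 8.48 in knockdown neuronal cultures. The lines overlapped at the SNM and neuronal stages, and both neuronal cultures lay below every earlier condition.

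Psat1, the next enzyme of the pathway, was highest in control SNM cells. Its signal was 11.71, 11.75 and 11.69 in control and 11.72, 11.63 and 11.55 in knockdown ES cells. SNM cells read 12.02, 12.003 and 12.02 in the control and 11.65, 11.44 and 11.59 in the knockdown. Neuronal cultures read 11.10, 10.98 and 10.96 against 10.99, 10.84 and 10.90. The SNM stage was the only one at which the lines did not overlap.

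Shmt2 stepped down from stage to stage in both lines. Its signal was 8.51, 8.73 and 8.64 in control and 8.50, 8.58 and 8.49 in knockdown ES cells. It was 8.11, 8.20 and 8.04 in control and 7.74, 7.81 and 7.41 in knockdown SNM cells. It was 7.23, 7.20 and 6.99 in control and 6.68, 6.64 and 6.35 in knockdown neuronal cultures. From the knockdown ES cells down, no condition overlapped with the next.

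At its representative probe Mthfd2 held its level in the control up to the SNM stage and had already dropped by then in the knockdown. Its signal was 11.28 on all 3 control ES arrays and 11.44, 11.55 and 11.49 in knockdown ES cells. The SNM values were 11.32, 11.28 and 11.34 in the control and 10.41, 10.45 and 10.31 in the knockdown. The neuronal values were 10.01, 9.93 and 10.06 in the control and 9.38, 9.43 and 9.48 in the knockdown. Only the control ES and control SNM arrays overlapped. At the second Mthfd2 probe the mean also fell in the control, from 9.39 in ES to 9.02 in SNM cells, by less than 1.5-fold. In the knockdown it fell from 9.47 to 8.07.

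The first comparison asked what HPRT knockdown does in undifferentiated cells. Of the 10 genes 0 passed the test, which required a Benjamini-Hochberg adjusted p under 0.05 in limma over all tested probes and a change of at least 1.5-fold. The share of all tested probes that passed was 1.68%. Ddit3 came closest, at a log2 difference (knockdown minus control) of 0.49 with a standard error of 0.08 and an adjusted p of 0.00124, below the fold threshold, and it passed when arrays were scaled to their median in place of quantile normalization. At an unadjusted p under 0.05 in limma, with no fold threshold, 7 genes passed, as did 29 of the 114 tested genes of the other pathway lists below. At an adjusted p under 0.05 with no fold threshold, 4 of the 10 genes passed, with positive differences in Ddit3, Mthfd2 (0.22, adjusted p = 0.0162), Asns (0.21, adjusted p = 0.0254) and Atf4 (0.21, adjusted p = 0.0315). The 1.68% holds for the full test, and no share of all tested probes is given here for these looser thresholds. The other probes of these 4 genes were also higher in the knockdown, but by less in Asns and Mthfd2. Their means in knockdown and control were 10.32 and 10.16, and 9.15 and 9.09, for Asns, and 9.47 and 9.39 for Mthfd2. The median difference over the 10 genes was 0.20, against 0.01 over all tested probes.

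At the SNM stage, Ddit3 rose in the knockdown while Mthfd2, Sesn2 and Asns fell, so that 4 of the 10 genes passed, where 19.9% of all tested probes did. Ddit3 was 1.61-fold higher (log2 0.69 ± 0.08 SE, n = 3 arrays a condition, adjusted p = 3.45e-06 by limma). Mthfd2 was 1.90-fold lower (log2 -0.93 ± 0.05 SE, adjusted p = 8.89e-10), and its second probe gave -0.95 and passed as well. Asns was 1.68-fold lower (log2 -0.75 ± 0.06 SE, adjusted p = 1.7e-08), with -0.89 and -0.92 at its other probes, both of which passed. Sesn2 was 1.79-fold lower (log2 -0.84 ± 0.20 SE, adjusted p = 0.00203), but its dimmer second probe, at -0.56, did not pass. The second Ddit3 probe gave 0.42 and did not pass either, and the mean of both Ddit3 probes fell short of 1.5-fold.

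The other 6 genes did not reach 1.5-fold at the SNM stage, although 5 of them had an adjusted p under 0.05. The log2 differences were -0.47 for Chac1, -0.47 for Shmt2, -0.46 for Psat1, -0.21 for Atf4 and 0.26 for Phgdh. Trib3, at -0.14 with a 95% interval of -0.31 to 0.03, had an adjusted p of 0.162. No share of all tested probes is given for an adjusted p under 0.05 without the fold threshold. At an unadjusted p under 0.05 in limma, 9 of the 10 genes passed, as did 80 of the 113 tested genes of the other pathway lists below. The median over the 10 genes was -0.46, against -0.04 over all tested probes, and 8 of the 10 differences were negative. Of the 8 proliferation genes 5 were lower in the knockdown at this stage (list median -0.62), as were 6 of 7 tested oligodendrocyte genes (-1.75) and 4 of 7 pluripotency genes (-0.78), while 6 of 7 tested muscle genes were higher (0.96). Their part in these differences was not tested.

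At the neuronal stage Ddit3 was the 1 gene of the 10 that passed, where 27.4% of all tested probes did. It was 2.42-fold higher in the knockdown (log2 1.28 ± 0.08 SE, adjusted p = 1.23e-09), and its second probe passed at 1.16. Shmt2 at -0.58, Mthfd2 at -0.57 and Asns at -0.51 lay just under the fold threshold, with adjusted p-values of 0.000212, 1.23e-07 and 7.54e-07. Shmt2 or Mthfd2 passed when any single neuronal array other than control array 1 was left out, which made 2 genes in place of 1. The intervals of Atf4 (-0.09 to 0.16), Trib3 (-0.23 to 0.11), Phgdh (-0.18 to 0.21) and Psat1 (-0.24 to 0.03) included no difference of 1.5-fold. Sesn2, at -0.40, had an interval of -0.82 to 0.02, which leaves room for a difference of that size. In the knockdown at this stage 7 of 8 proliferation genes, all 8 muscle genes, all 7 pluripotency genes and 4 of 5 tested neuron genes were lower, and all 8 oligodendrocyte genes were higher. Their part in these differences was not tested.

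**Figure D2:**
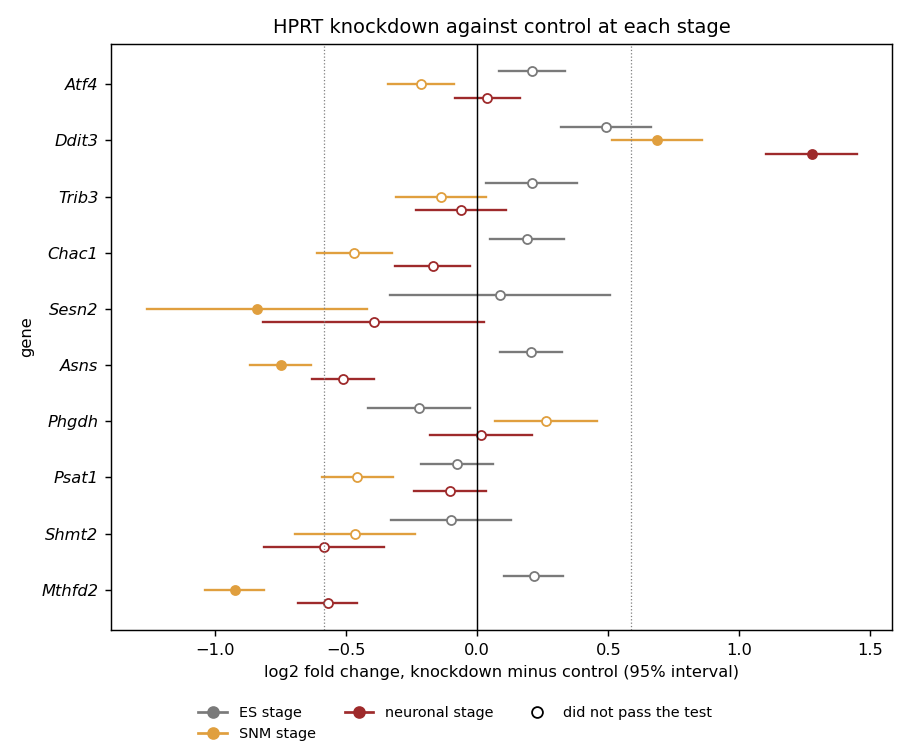
Log2 fold change between knockdown and control (horizontal axis, knockdown minus control) for each gene (vertical axis) at the ES (grey), SNM (orange) and neuronal (dark red) stages, with 95% intervals of the fit over 3 arrays a condition and dotted lines at 1.5-fold. Filled points passed the test: Ddit3 at the SNM and neuronal stages on the right, and Asns, Sesn2 and Mthfd2 at the SNM stage on the left.

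Whether the knockdown difference itself changed between the ES and SNM stages was tested as an interaction, and 4 of the 10 genes passed, all towards lower signal, where 21.3% of all tested probes passed. The interaction was -1.14 ± 0.07 (SE, log2) for Mthfd2, with an adjusted p of 1.18e-08. It was -0.96 ± 0.08 for Asns (adjusted p = 1.34e-07), -0.93 ± 0.28 for Sesn2 (adjusted p = 0.0147) and -0.66 ± 0.09 for Chac1 (adjusted p = 4.84e-05). For Asns, Chac1 and Mthfd2 the knockdown arrays went from above the control arrays to below them. All probes of Mthfd2, Asns and Sesn2 passed this interaction. Atf4 itself, at -0.42 with an adjusted p of 0.000779, stayed under 1.5-fold at its brighter probe and passed at its dimmer one, at -0.62. The Ddit3 interaction, 0.19 with an interval of -0.05 to 0.44, had an adjusted p of 0.195, so a difference in its knockdown response between these stages was not detected.

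From the SNM to the neuronal stage the change in the knockdown difference passed for Ddit3 alone among the representative probes of the 10 genes, where 28.6% of all tested probes passed. The Ddit3 interaction was 0.59 ± 0.12 (SE, log2; adjusted p = 0.000518), at the fold threshold, and it dropped below it, to between 0.51 and 0.57, when control SNM array 1, knockdown SNM array 3, control neuronal array 3 or knockdown neuronal array 1 was left out. Mthfd2 (0.35), Psat1 (0.35), Chac1 (0.30), Atf4 (0.25) and Asns (0.24) had positive interactions with adjusted p-values under 0.05 that did not reach 1.5-fold. The dimmer Atf4 probe passed at 0.59, and so did the dimmest of the 3 Asns probes (0.61, adjusted p = 0.00132), while the other Asns probe gave 0.43 and did not.

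The stage comparisons showed where the genes moved in differentiation itself. From the ES to the SNM stage, 2 of the 10 genes passed in control cells, where 49.1% of all tested probes did. By limma, Chac1 rose (log2 0.96, adjusted p = 1.73e-09) and Trib3 fell (-0.76, adjusted p = 2.96e-07). The second probe of Ddit3 passed as higher and that of Shmt2 as lower, while their representative probes did not pass. In knockdown cells 7 of the 10 passed, where 57.3% of all tested probes did. Of these, Ddit3 (0.77) and Phgdh (0.62) rose, and Mthfd2 (-1.11), Trib3 (-1.11), Sesn2 (-1.09), Shmt2 (-0.87) and Asns (-0.59) fell. The dimmer Atf4 probe also passed as lower. Asns stood at the fold threshold and dropped below it, to between -0.57 and -0.55, when knockdown SNM array 1 or 3 or knockdown ES array 2 was left out, and Phgdh dropped below it, to 0.53, without knockdown SNM array 3. The control and knockdown comparisons use different arrays, and the test of their difference is the interaction given above. The comparisons into and out of the SNM stage share the SNM arrays.

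From the SNM to the neuronal stage most of the genes fell in both lines. In control cells 8 of the 10 fell, where 29.4% of all tested probes passed in either direction. Mthfd2 changed by -1.31, Chac1 by -1.17, Trib3 by -1.05, Psat1 by -1.002, Shmt2 by -0.98, Sesn2 by -0.94, Phgdh by -0.85 and Asns by -0.77 on the log2 scale. Atf4 (-0.20) and Ddit3 (0.30) did not pass. In knockdown cells 7 passed, where 28.6% of all tested probes did. Ddit3 rose (0.89) while Phgdh (-1.10), Shmt2 (-1.10), Trib3 (-0.97), Mthfd2 (-0.96), Chac1 (-0.87) and Psat1 (-0.65) fell. Asns did not pass at its representative probe, though 2 of its 3 probes passed as lower. Of the 3 Trib3 probes, the 2 dimmer ones did not pass. The median change of the 10 genes was -0.96 in the control and -0.76 in the knockdown, against -0.07 and -0.02 over all tested probes. Skeletal muscle genes in the control and oligodendrocyte genes in the knockdown appeared over the same interval, and all 8 proliferation genes fell in both lines, with medians of -1.41 in the control and -1.74 in the knockdown. Their part in the lower signals was not tested.

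Over the whole course from the ES to the neuronal stage, 7 of the 10 genes passed in each line, where 61.1% of all tested probes passed in the control and 63.7% in the knockdown. Ddit3 rose in both, by 0.88 in the control and 1.66 in the knockdown. Trib3 (-1.81 and -2.08), Shmt2 (-1.48 and -1.97), Mthfd2 (-1.28 and -2.06), Sesn2 (-1.10 and -1.58) and Psat1 (-0.70 and -0.73) fell in both. Phgdh passed in the control at -0.72, and Asns passed in the knockdown at -1.12. In the control the representative Asns probe, at -0.41, did not pass, but 2 of the 3 Asns probes passed as lower. The dimmer Atf4 probe passed as lower in both lines.

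**Figure D3:**
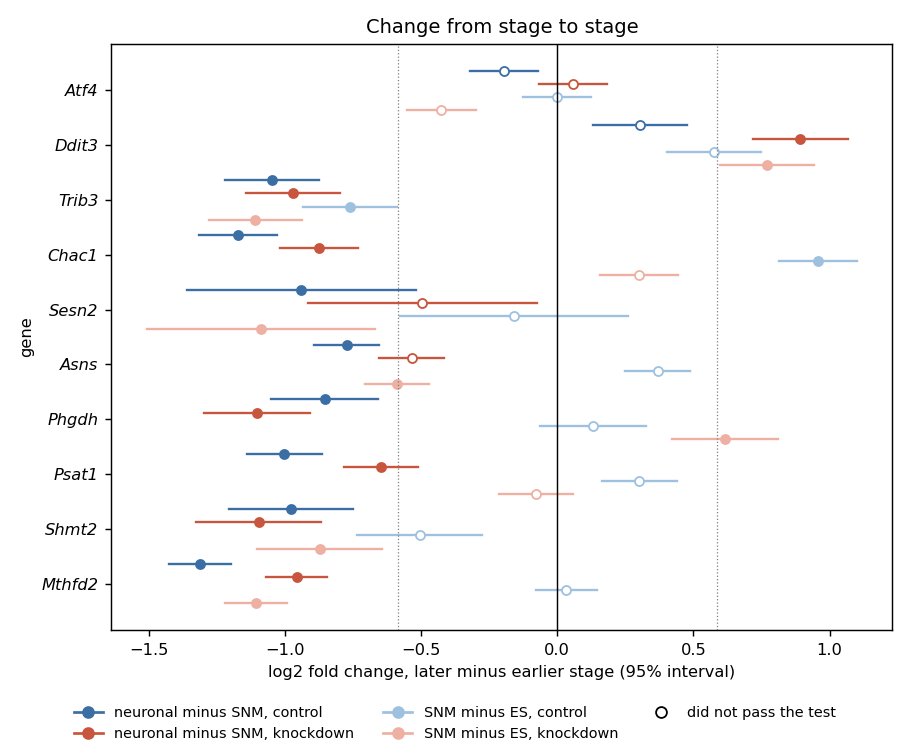
Log2 fold change from the SNM to the neuronal stage (dark colours) and from the ES to the SNM stage (light colours) in control (blue) and knockdown (red) cells, plotted on the horizontal axis for each gene on the vertical axis, with 95% intervals of the fit, dotted lines at 1.5-fold and filled points for changes that passed. The dark points of 8 genes in the control lie between -1.31 and -0.77, while Ddit3 lies to the right of 0 in all 4 comparisons.

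The 10 genes did not form a single block. Over the 6 condition means, 36 of their 45 pairs had a positive Pearson correlation and 9 a negative one, with a median of 0.73 and a range from -0.90 to 0.99. All 9 negative pairs included Ddit3, at -0.90 to -0.37, and all 36 pairs among the other genes were positive. The points are 6 pools that share a differentiation course, so these values describe the course and carry no test. Among 12866 probes that varied by at least 1 log2 unit between conditions, those most like Asns over the 18 arrays were of Cdkn3 (r = 0.982), Sf3a1 (r = 0.981), Ppif (r = 0.975), LOC219145 (r = 0.97) and Tmpo (r = 0.969), and 360 probes exceeded 0.9. Those most like Phgdh were of Etsrp71 (r = 0.957), LOC100047402 (r = 0.949), LOC666036 (r = 0.939), Pgbd1 (r = 0.938) and Rab25 (r = 0.936), and 15 probes exceeded 0.9. For Atf4, with the narrow range of its brighter probe, LOC638050 (r = 0.912), Suv420h2 (r = 0.899), Whsc2 (r = 0.895), Plk3 (r = 0.895) and Nudcd1 (r = 0.892) came first.

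Other genes of the pathway were followed in 10 lists that cover the remaining regulators, eIF2 factors, amino acid transporters, aminoacyl-tRNA synthetases, ER chaperones and the neighbouring serine, folate, methionine and proline enzymes. At the ES stage 0 of the 114 tested passed between knockdown and control by limma, and 29 had an unadjusted p under 0.05, none of them at 1.5-fold. At the SNM stage 9 of 113 were higher and 14 lower in the knockdown, or 20.4% against the 19.9% of all tested probes, and the balance moved to 4 higher and 16 lower when arrays were scaled to their 75th percentile and to 7 and 19 when they were scaled to their median. At the neuronal stage 13 of 108 were higher and 13 lower, or 24.1% against 27.4%. Both shares lay near those of all tested probes.

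Among 19 regulators and induced genes, 5 were higher and 3 lower in the knockdown at the neuronal stage, or 42.1% against 27.4% of all tested probes. The stress cytokine Gdf15 (log2 1.73), the stress-induced transcription factor Atf3 (1.34) and the stress-induced nuclear protein Nupr1 (1.18) were, like Ddit3, higher. Cth, which makes cysteine from cystathionine, was lower by at least 1.61-fold, as it was undetected on every knockdown array. At the SNM stage 3 of 19 were higher, namely the hormone Fgf21 (1.08), the alanine aminotransferase Gpt2 (0.72) and the growth factor Vegfa (0.68). Another 2 were lower, among them Cth (-1.16). Together these were 26.3%, against 19.9% of all tested probes. The interaction from the SNM to the neuronal stage passed for 7 of 19, or 36.8% against 28.6% of all tested probes. Of these 5 were positive and 2 negative, and Gdf15 (1.90), Fgf21 (-1.32) and Atf3 (1.31) were the largest.

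The synthetases, which charge tRNAs and are largely Atf4 targets in other cells, had no member that passed as higher in any of the 11 comparisons. At the SNM stage 3 of 21 were lower in the knockdown, Vars (-0.86), Tars (-0.86) and Iars (-0.70), or 14.3% against 19.9% of all tested probes, and the list median was -0.39 against -0.04. At the neuronal stage Tars (-0.76) was the 1 of 19 that passed, or 5.26% against 27.4%. From the ES to the neuronal stage 14 of 20 fell in the control and 17 of 21 in the knockdown, or 70% and 81% against 61.1% and 63.7% of all tested probes that passed in either direction. The list medians were -0.72 and -1.02, against -0.13 and -0.10 over all tested probes.

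Among the transporters, the cystine carrier Slc7a11 (-2.52) and the cationic amino acid carrier Slc7a3 (-1.62) were lower in knockdown neuronal cultures, and the glycine carrier Slc6a9 was higher at the SNM (1.09) and neuronal (1.38) stages. Slc43a1 was lower at the SNM stage (-0.87). Of 8 tested transporters 25% passed at the SNM and 37.5% at the neuronal stage, against 19.9% and 27.4% of all tested probes. Of the eIF2 kinases, phosphatase subunits and eIF2 factors, only Eif2b3, a subunit of the eIF2 exchange factor, passed, at -0.65 in SNM and -0.59 in neuronal cultures. Of 18 ER chaperones and ER stress targets, Dnajb9 (0.65) and Pdia6 (0.62) were higher and Sdf2l1 (-0.61) lower at the SNM stage, and Sel1l (0.75) was higher at the neuronal stage. The shares that passed at the SNM and neuronal stages were 8.33% and 9.09% for the eIF2 list and 16.7% and 5.56% for the ER list. All 4 lay below the 19.9% and 27.4% of all tested probes.

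Of the other serine and glycine enzymes, the threonine-degrading Tdh (-1.16) and Gcat (-1.01) were lower in knockdown SNM cells, and Tdh (-2.09), Gcat (-1.25) and the cytosolic Shmt1 (-1.09) in knockdown neuronal cultures. The mitochondrial formyl-folate dehydrogenase Aldh1l2 rose by 3.03 in control and 2.91 in knockdown cells from the ES to the SNM stage and was a further 1.12 higher in knockdown neuronal cultures than in the control. Its cytosolic counterpart Aldh1l1 was higher in knockdown SNM cells (1.90), and the purine synthesis enzyme Gart was lower in the knockdown at both later stages (-0.61 and -0.73). At the neuronal stage the thymidylate synthase Tyms was lower (-1.70), and the folate enzyme Mthfs (0.93) and the folate carrier Slc19a1 (0.86) were higher. The folate receptor Folr1 was higher by at least 1.64-fold in knockdown SNM cells, as it was undetected on every control array. At the SNM and neuronal stages 22.2% and 37.5% of the tested serine and glycine enzymes passed. The shares were 0% and 25% for the mitochondrial and 27.3% and 50% for the cytosolic folate list. Of all tested probes, 19.9% and 27.4% passed.

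In the methionine cycle, Ahcy was lower in the knockdown at the SNM (-1.04) and neuronal (-0.67) stages and Cbs was higher at both (0.60 and 1.10). Pycr1, which completes proline synthesis, was lower at the SNM stage (-0.59) and higher at the neuronal stage (1.05), and its interaction between these stages was 1.65. In the methionine list 2 of 6 tested genes (33.3%) passed at each of these stages. The proline list, with 5 tested genes, had 40% and 20%. The shares of all tested probes were 19.9% and 27.4%. Tyms is also expressed with the cell cycle, and proliferation genes fell in the same comparison; their part in its difference was not tested.

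**Figure D4:**
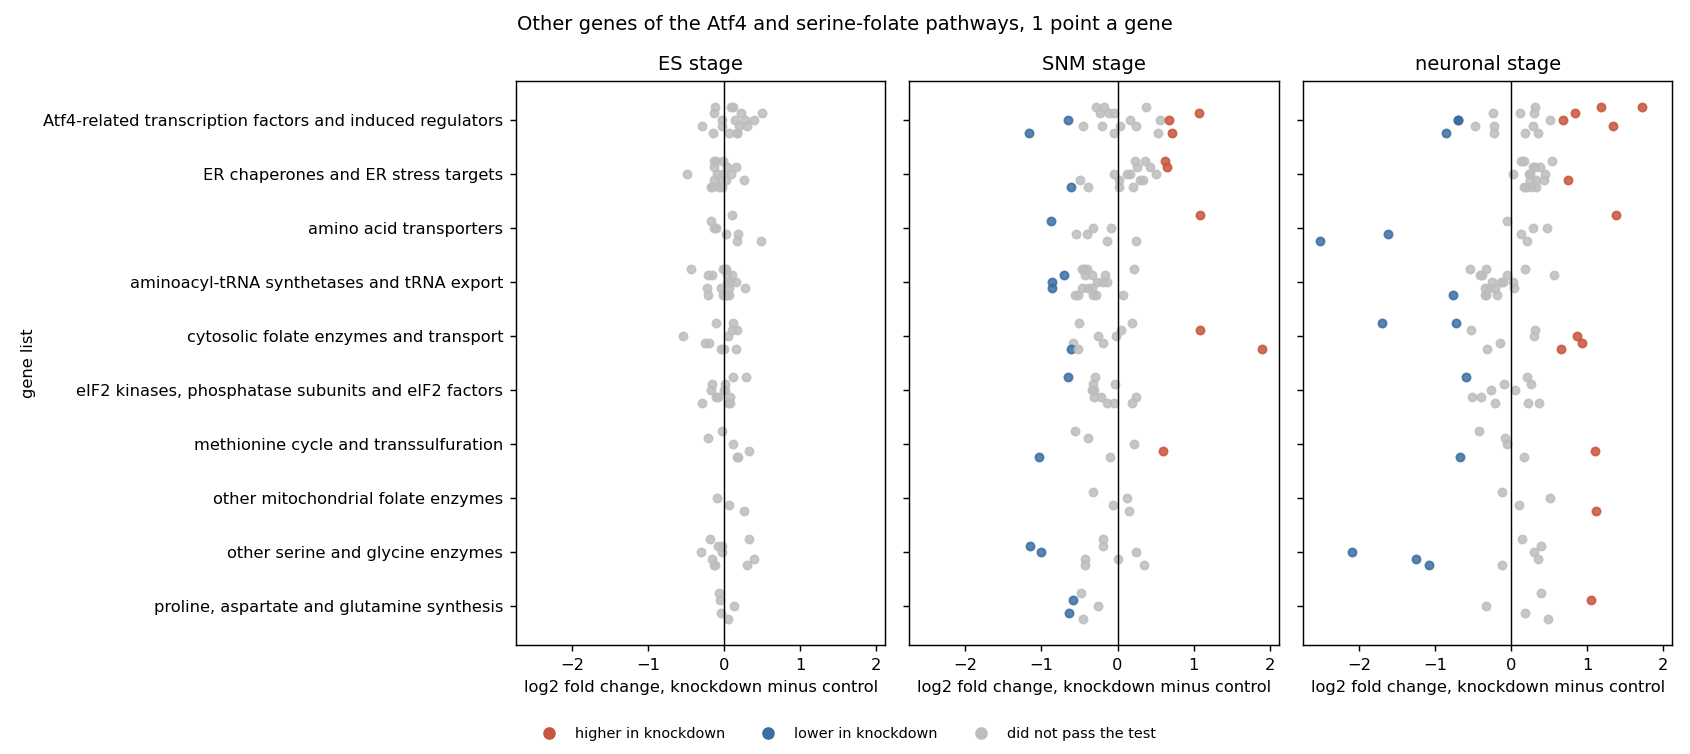
Log2 fold change between knockdown and control (horizontal axis, knockdown minus control) of each tested gene of the 10 other lists (vertical axis) at the 3 stages, with genes that passed in red (higher) and blue (lower) and the rest in grey. Points are fitted differences, also for genes undetected in 1 condition. No gene is coloured at the ES stage, 23 are at the SNM stage and 26 are at the neuronal stage, where Slc7a11 lies farthest to the left.

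Across the stages the genes of these lists that passed fell more often than they rose. From the ES to the SNM stage 15 of 114 rose and 31 fell in control cells, or 18 and 18 when arrays were scaled to their median, a scaling that shifted the median of all tested probes by 0.22. In knockdown cells 18 of 115 rose and 47 fell. These were 40.4% and 56.5% of the tested genes, against 49.1% and 57.3% of all tested probes, of which 4916 rose and 5251 fell in the control and 5663 rose and 6629 fell in the knockdown. From the SNM to the neuronal stage 6 of 112 rose and 27 fell in control cells, and 14 of 109 rose and 18 fell in knockdown cells. The shares were 29.5% and 29.4%, against 29.4% and 28.6% of all tested probes, of which 2965 rose and 3123 fell in the control and 2925 rose and 3126 fell in the knockdown. For the knockdown difference itself, the interaction from the ES to the SNM stage passed for 30 of 117 genes, 11 positive and 19 negative, or 2 and 21 at 75th percentile scaling and 5 and 30 at median scaling. From the SNM to the neuronal stage it passed for 20 positive and 10 negative of 113. The shares that passed were 25.6% and 26.5%, against 21.3% and 28.6% of all tested probes.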

How the data were processed

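Control and knockdown cells at 3 stages were measured on Illumina MouseWG-6 v2 arrays, with 3 arrays of 1 RNA pool for each of 6 conditions. Per the labels and methods, the authors scanned the arrays and extracted values with Illumina's BeadArray software. The deposited table holds signal intensity, not normalized, with a detection p-value for each probe. Another 72 columns of per-array values, named by chip position only, were not used. Background was corrected from the detection p-values and arrays were quantile normalized on a log2 scale (neqc of limma 3.58.1, R 4.3.3, offset 16). Arrays give no read depth, and their number limits the precision. A probe was tested where every array of some condition in the comparison had a detection p under 0.05, and 1 limma model covered all 18 arrays. A gene passed at a Benjamini-Hochberg adjusted p under 0.05 over all tested probes and at least 1.5-fold. Between 3 and 3 arrays an exact permutation test cannot go below p = 0.1. A gene undetected on every array of a condition has only a bound there: the mean of the other condition over that of the lowest detected signal on each array of the dim one, or over the dim probe itself where it was brighter than that. The named genes are the 10 members, Hprt1, up to 4 of each list with the largest change among those that passed, with others a count turned on, and the 5 nearest correlates of Atf4, Asns and Phgdh. Of the genes this rule picks, 1 is counted in its list and not reported here by name. The members, lists and tests were chosen with earlier results of these data known. Array numbers in the titles pair the arrays only in part. At the SNM stage, deviations from the condition means correlated at 0.486, 0.108 and 0.489 between same-numbered control and knockdown arrays. Differently numbered arrays there gave -0.52 to 0.191. Same-numbered arrays gave 0.605, 0.0938 and 0.325 at the neuronal stage, against -0.578 to 0.402 for differently numbered ones. At the ES stage the values were -0.0938, 0.0254 and 0.0959, against -0.18 to 0.141. Alternatives covered normalization, the filter, the fold threshold, the spread, the probe used, the array number as a block, the methods' tests and each array left out. The model was checked on simulated data. Promoters came from RefSeq (GRCm38.p6), to which all 10 members matched.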

Additional observations from a re-analysis of the deposited data

Results flagged for a closer look

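The interaction in limma, with adjustment over all tested probes, passed for 4 of the 10 genes from the ES to the SNM stage. It passed for 1 from the SNM to the neuronal stage. Of all tested probes, 21.3% and 28.6% passed these interactions. From the ES to the SNM stage the interaction on the log2 scale was -1.14 for Mthfd2, -0.96 for Asns, -0.93 for Sesn2 and -0.66 for Chac1. From the SNM to the neuronal stage it was 0.59 for Ddit3, at the fold threshold. This call was lost when any 1 of 4 arrays was left out.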

How the results depend on the processing

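Of 1890 values of the 10 genes under the alternatives, 1776 kept their side of the threshold, 46 lost a call and 68 gained one. The sign turned in 16, of which 0 were called under either setting. With a minimum of 2-fold, the number of the 10 genes that passed fell to 0 between knockdown and control at the SNM stage, 0 and 3 from the ES to the SNM stage (control, knockdown), 4 and 2 from the SNM to the neuronal stage, 4 from the ES to the neuronal stage in the control, and 1 and 0 for the interactions (SNM minus ES, neuronal minus SNM). With no minimum fold it was 4, 9 and 5 between knockdown and control at the ES, SNM and neuronal stages, 6 between control ES and SNM cells, and 8 and 6 for the interactions. Among the other pathway genes, 2-fold left 8 and 13 between knockdown and control in SNM and neuronal cultures, 19 and 32 from the ES to the SNM stage, 13 and 16 from the SNM to the neuronal stage, 46 and 42 from the ES to the neuronal stage, and 4 and 9 for the interactions, and no minimum fold gave 10, 73 and 74 between knockdown and control, 84 from the ES to the SNM stage in the control, 77 and 79 from the SNM to the neuronal stage, and 61 and 55 for the interactions. These follow from the thresholds themselves, and no share of all tested probes is given for them. Median scaling gave 1 of the 10 genes at the ES stage (Ddit3), 2 at the neuronal stage (Ddit3, Shmt2) and 1 other pathway gene at the ES stage. Quantile normalization with no background correction gave 0 for the neuronal minus SNM interaction and 18 other pathway genes for the SNM minus ES interaction, and the mean of a gene's probes gave 4 genes from the ES to the SNM stage in the control. The cause was not tested. The Ddit3 call at the SNM stage was lost at 75th percentile scaling and with the mean of its probes, and the Sesn2 call there in the methods' paired test. From the ES to the SNM stage in the knockdown, quantile normalization with no background correction ended the Asns and Phgdh calls and 75th percentile scaling the Phgdh call. The latter scaling also ended the Psat1 call between SNM and neuronal knockdown cultures. Median scaling ended the calls of Trib3 from the ES to the SNM stage in the control, of Phgdh from the ES to the neuronal stage in the control and of Psat1 between SNM and neuronal knockdown cultures. The methods' unpaired and paired tests, at their unadjusted threshold, gave 4 and 3 of the 10 genes at the SNM stage, and 3 and 2 after Benjamini-Hochberg adjustment. With each array left out, the 10 genes gave 0 to 1 for the neuronal minus SNM interaction and 1 to 2 between knockdown and control at the neuronal stage, and the other pathway genes 0 to 2 at the ES stage. With the array number as a replicate block, 0, 4 and 1 of the 10 genes passed between knockdown and control at the ES, SNM and neuronal stages, and the block changed no call of the 10 genes in any comparison. Signal over background limits the dimmer probes of Sesn2 and Trib3 most, which were detected on 14 and 16 of 18 arrays.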
